A study of Mus musculus with 12 samples.

Results

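The effect of N-acetylcysteine (NAC) was examined in hearts of newborn mice that had a myocardial infarction (MI). The comparison set 3 libraries titled NAC MI against 3 titled saline MI, which are 6 of the 12 libraries of the study, and took the 14996 of 52336 genes whose normalized read count averaged at least 10 over the 12 libraries. All mice were wild type. The NAC MI pups were given NAC every day from postnatal day 0 to day 1, at a dose that the labels call high without a figure, in a saline buffered with 25 mM HEPES and 140 mM NaCl. The saline MI pups were given saline on the same days, and the labels do not say whether it held HEPES, so NAC and its buffer cannot be told apart. In both groups the left anterior descending artery of the heart was occluded on day 2, and their hearts were taken on day 3. The other 6 libraries, 3 of NAC sham and 3 of saline sham, came from pups with the same injections and a sham procedure in place of the occlusion. Cardiomyocytes were obtained by enzymatic digestion of pooled ventricles and a kit made for neonatal cardiomyocytes, and poly-A-selected RNA was sequenced. Values below are normalized read counts in libraries 1, 2 and 3 of a group, in that order. Nothing in the labels says that the libraries of a group came from separate litters, and p-values thus refer to spread among libraries, which may in part be technical. Sex-linked reads, given below, differ within each infarcted group, so its libraries did not all come from the same animals.

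NAC donates cysteine, the limiting amino acid of glutathione, and is used as a thiol antioxidant. Cardiomyocytes of newborn mice still divide and stop doing so soon after birth, many after a last round of DNA replication without cytokinesis. To complete mitosis a cell needs cyclin B with its kinase CDK1, a spindle attached to kinetochores, and a contractile ring, and the genes for these parts are transcribed together late in the cell cycle, in cardiomyocytes as in the other dividing cells of the heart.

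Library depth was 17796632, 14353842 and 15993567 reads for NAC MI, and for saline MI it was 18116190, 25118341 and 19677556 reads. The cardiomyocyte label was borne out by its markers: Myh6, the adult cardiac myosin, stood at 128246, 181855 and 82625 in NAC MI against 81768, 114628 and 90445 in saline MI. The 15 cardiomyocyte markers had a median log2 difference of 0.03, which ran from -0.15 to 0.14 with 1 infarcted library left out. Markers of fibroblasts, endothelium and macrophages were also present, so a bulk value can come from any of these cells, and fewer cells of a type cannot be told apart from less RNA per cell. NAC MI 2 stood apart from the other 5 infarcted libraries: its 21 macrophage and monocyte markers summed to 1352, against 11321 to 16911 in those 5, and its 15 epicardial markers to 40604, against 7775 to 9519.6. Sex was not balanced either. NAC MI 1 and 2 had 0 reads of the Y-linked genes Ddx3y, Eif2s3y, Kdm5d and Uty and 8841 and 8953 normalized counts of Xist, NAC MI 3 and saline MI 1 and 3 had Y-linked reads with Xist at 0, 19.1 and 0, and saline MI 2 had both, with Xist at 1607. The titles begin with R235 for NAC MI 1, NAC MI 2 and saline MI 3 and with R230 for the other 3 infarcted libraries, a prefix whose meaning is not stated. The cardiomyocyte marker median was -0.23 within R230 and 0.35 within R235.

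**Figure D1:**
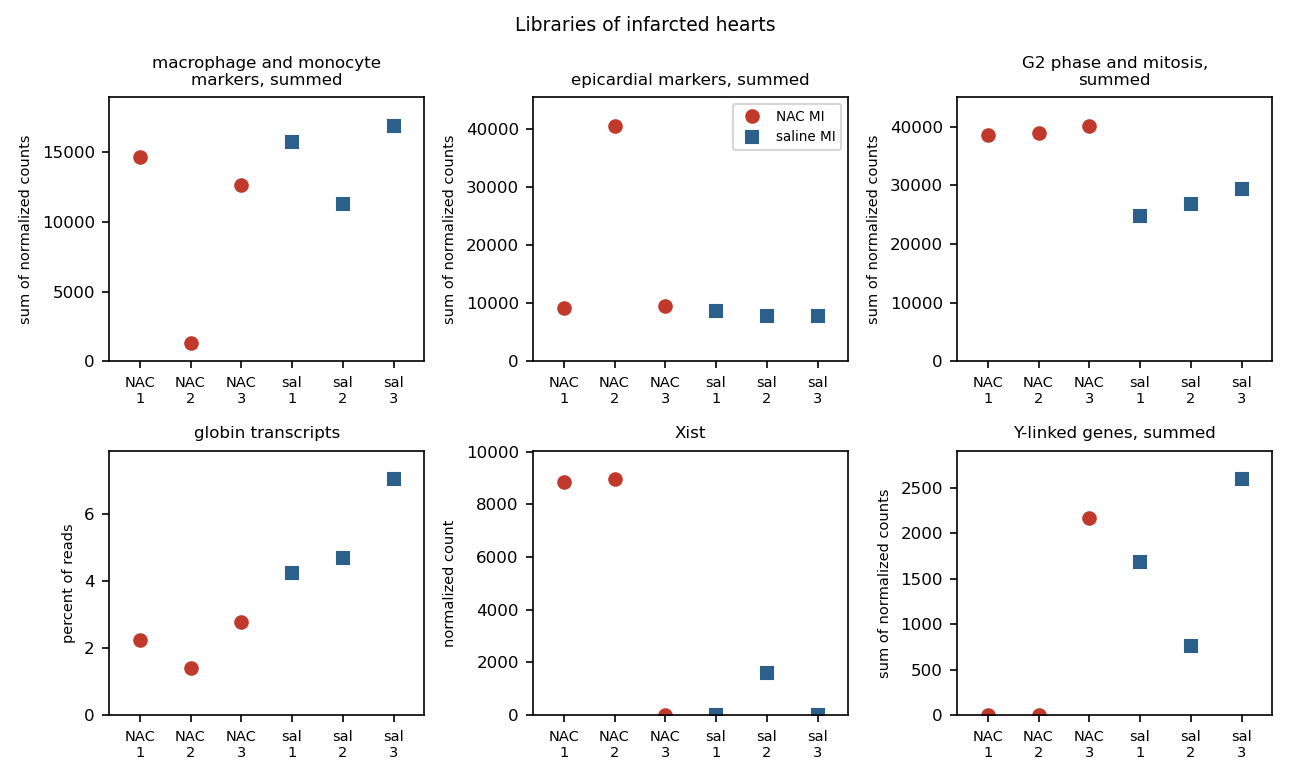
Each panel shows the 3 NAC MI libraries (circles, left) and the 3 saline MI libraries (squares, right), with the summed normalized count of a marker list, the percentage of reads from globin genes, or the normalized count of Xist or of 4 Y-linked genes on a linear vertical axis from 0. NAC MI 2 is the low point for macrophage markers and the high point for epicardial markers, while the summed G2 phase and mitosis genes lie at 38662 to 40175 in NAC MI and 24808 to 29413 in saline MI.

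Genes of G2 phase and mitosis were higher in NAC MI than in saline MI hearts as a group of small differences, and no single gene of the genome passed correction for multiple testing. In limma, 0 of 14996 genes passed at an adjusted p under 0.05 (0.0% called, smallest adjusted p = 0.529), and 1382 had an unadjusted p under 0.05 (9.22%), 579 of them higher (3.86%) and 803 lower (5.35%). On whole reads recovered from the values, edgeR's quasi-likelihood test also called 0 genes and DESeq2 called 10. The 7 higher by DESeq2 were Hmmr, Anln, Ckap2, Depdc1a, Mtfr2, Slc16a12 and Fstl4, which is 0.0467% of genes, and the 3 lower were Hbb-bt, Col26a1 and Fam214b (0.02%). With library quality weights, which let libraries that deviate count less, limma called 685 genes (412 higher, 2.75%, and 273 lower, 1.82%), among them all 10 of these. Saline MI 1 had the largest weight, at 4.70, ahead of NAC MI 1 at 2.40. Saline MI 2 stood at 1.40, saline MI 3 at 0.82, NAC MI 3 at 0.49 and NAC MI 2 at 0.45. This weighted fit thus leaned most on saline MI 1 and NAC MI 1, which differed in sex-linked reads and title prefix. Its calls included the Y-linked Ddx3y, Eif2s3y, Kdm5d and Uty, all lower. The part of sex and title prefix in the calls was not tested. Of all genes tested, 48.1% had a difference above 0 and 51.9% below 0, and the median log2 difference was -0.02. The 3 NAC MI values lay above all 3 saline MI values in 1325 genes (8.84%) and below them in 1719 (11.5%).

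Of 53 genes listed for G2 phase and mitosis, all 53 were tested, 51 were higher in NAC MI, 31 of them at an unadjusted p under 0.05 in limma against 3.86% of all genes, and 33 had all NAC MI values above all saline MI values against 8.84% of all genes. Their median log2 difference was 0.55, against -0.02 over all genes. Summed over the 53 genes, the level was 38662, 38961 and 40175 in NAC MI against 24808, 26753 and 29413 in saline MI. The groups did not overlap, and the highest sum was that of NAC MI 3. Sex was not balanced between the groups, and its part in this difference was not tested. The median was 0.72 within prefix R230 and 0.43 within R235, and 0.59 without NAC MI 2. The number at an unadjusted p under 0.05 was 16 without saline MI 1 and 20 without saline MI 2, and its range over the other libraries is given in the closing section.

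**Figure D2:**
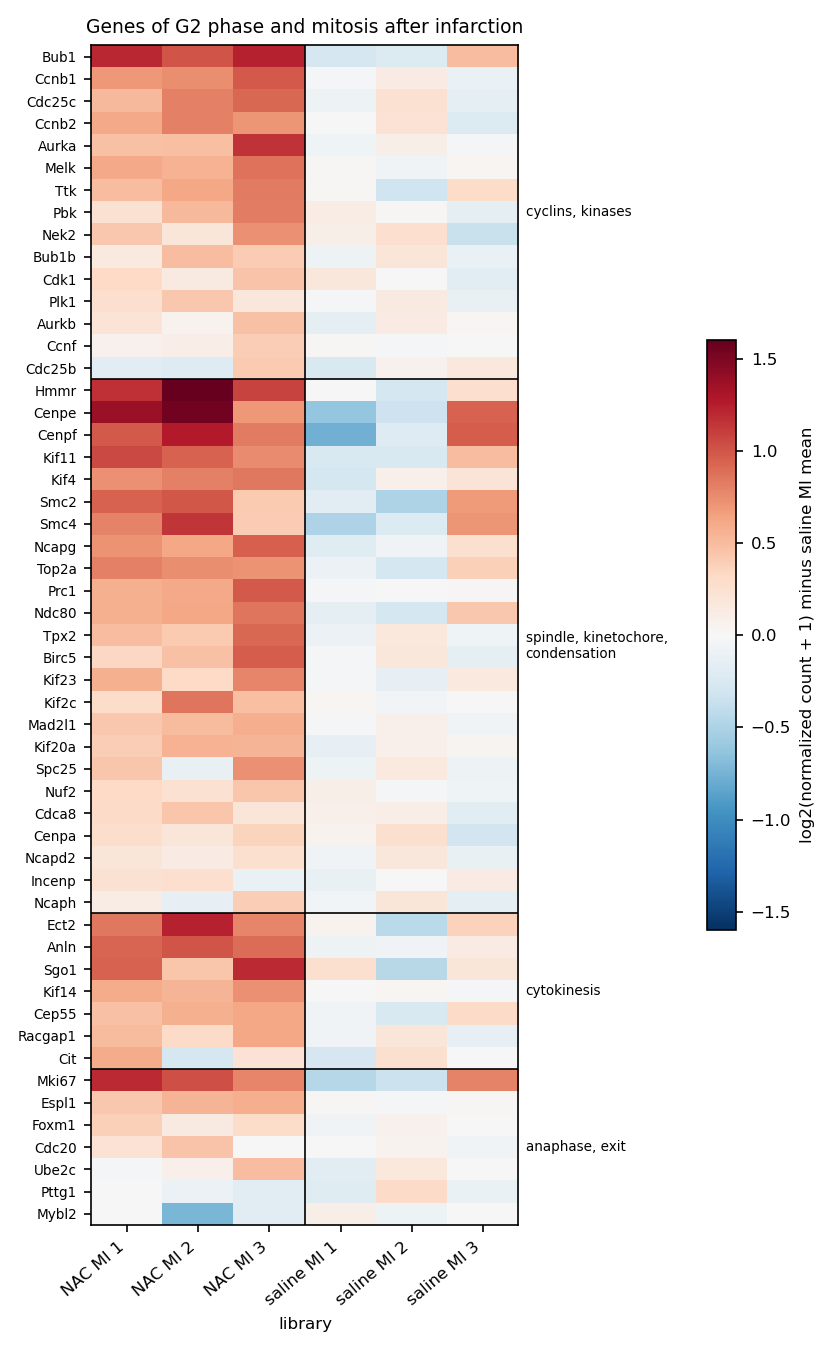
Each row is 1 of the 53 genes of G2 phase and mitosis, grouped by role, and each column is a library, NAC MI on the left and saline MI on the right of the black line. Colour gives log2(normalized count + 1) minus the gene's saline MI mean, and the NAC MI columns are red for most genes, with Mybl2 and Pttg1 as the 2 members whose difference was below 0.

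The 15 cyclins, kinases and phosphatases that drive entry into mitosis were all higher (median log2 0.53). Of them 8 had an unadjusted p under 0.05 and 10 had groups apart, against 3.86% and 8.84% of all genes. Ccnb1, which encodes the cyclin B1 subunit that activates CDK1, had 915, 946 and 1117 in NAC MI against 556, 619.5 and 528 in saline MI. All 3 NAC MI values were above the highest saline MI value, a log2 difference of 0.80 ± 0.21 (SE; adjusted p = 0.529 in limma). Ccnb2, the second B-type cyclin, had 709, 812 and 759.8 in NAC MI against 462, 546 and 398 in saline MI. Bub1, a kinase of the spindle checkpoint, had 539, 469 and 547 in NAC MI against 193, 201 and 327 in saline MI. Bub1 had the largest log2 difference of the 15, at 1.15 ± 0.29, and saline MI 3 was nearest to the NAC MI libraries. Aurka, the centrosomal kinase Aurora A, had 393, 398 and 632 in NAC MI against 271, 302 and 279 in saline MI, with NAC MI 3 as the highest library. Cdk1 itself differed less: it had 1141, 1008 and 1253 in NAC MI against 1036, 909 and 803 in saline MI, and saline MI 1 lay above NAC MI 2 (log2 difference 0.31 ± 0.18). Plk1, a kinase active throughout mitosis, had groups apart at 387, 431 and 362 in NAC MI against 314, 354 and 293 in saline MI, a log2 difference of 0.29 ± 0.19. Cdc25b, a phosphatase that activates CDK1, showed no such gap, with 571, 557 and 863 in NAC MI against 544, 675 and 726 in saline MI.

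The 24 genes of the spindle, the kinetochore and chromosome condensation were all higher (median log2 0.60). Of them 16 had an unadjusted p under 0.05 and 15 had groups apart, against 3.86% and 8.84% of all genes. Hmmr, which encodes a hyaluronan receptor that also binds spindle microtubules, had 617, 875 and 579 in NAC MI against 275, 224 and 329 in saline MI. The lowest NAC MI library exceeded the highest saline MI library by a wide margin, the log2 difference was 1.31 ± 0.21, and Hmmr had the smallest p of any of the 14996 genes in limma (unadjusted p = 3.66e-05). DESeq2 gave it an adjusted p of 0.000203. Tpx2, a spindle assembly factor that activates Aurora A, had 1050.1, 1003 and 1411 in NAC MI against 699, 839 and 713 in saline MI. Kif11, the kinesin that pushes spindle poles apart, had 966, 896 and 781 in NAC MI against 391, 391 and 653 in saline MI. Top2a, the topoisomerase that untangles sister chromatids, had 3231, 3115 and 3049.6 in NAC MI against 1739.7, 1518 and 2409 in saline MI. All of these had groups apart, and for Kif11 and Top2a saline MI 3 was the highest of its group. Cenpe, a kinetochore motor, had 573, 647 and 357 in NAC MI against 144, 175 and 426 in saline MI, so that NAC MI 3 lay within the range of saline MI.

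The 7 genes of cytokinesis were all higher (median log2 0.62). Of them 6 had an unadjusted p under 0.05 and 6 had groups apart, against 3.86% and 8.84% of all genes. Anln encodes anillin, the scaffold of the contractile ring. It had 1402, 1469 and 1359 in NAC MI against 695, 708 and 803 in saline MI, and the lowest NAC MI library stood well above the highest saline MI library. The log2 difference was 0.94 ± 0.19, with an adjusted p of 0.0147 in DESeq2. Ect2, the exchange factor that switches on RhoA at the cleavage furrow, had 437, 576 and 419 in NAC MI against 255, 181 and 317 in saline MI. Racgap1, its partner in centralspindlin, had 1427, 1247 and 1554 in NAC MI against 970.3, 1152 and 918 in saline MI. Prc1, a microtubule bundler of the midzone counted with the spindle genes, had 819, 846 and 1091 in NAC MI against 543, 556 and 562 in saline MI. In none of these 3 did the groups overlap.

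Genes of anaphase, mitotic exit and mitotic transcription were mixed: 5 of 7 were higher, 1 at an unadjusted p under 0.05 (against 3.86% of all genes, median log2 0.23). Mki67, which encodes the proliferation antigen Ki-67 that coats mitotic chromosomes, had 3044, 2725 and 2295 in NAC MI against 974, 1053 and 2316 in saline MI. Saline MI 3 lay in the NAC MI range, so the groups overlapped, with a log2 difference of 1.0 ± 0.40. Foxm1, a transcription factor of the late cell cycle, had 721, 610.1 and 676 in NAC MI against 534, 579 and 549 in saline MI, groups that were apart by a small step. The 2 members below 0 were Pttg1, the separase inhibitor securin, at 410.1, 381 and 363 in NAC MI against 356, 502 and 379 in saline MI, and Mybl2, the B-Myb factor, at 299, 182 and 266 in NAC MI against 322, 284 and 299 in saline MI. Both overlapped between groups, and Pttg1 had the other sign under 2 alternatives given in the closing section.

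Beside Hmmr, Anln and Bub1, 4 genes outside the mitotic list were among those named for the smallest p values higher in NAC MI. Depdc1a, a DEP domain protein, had 206, 328 and 254 in NAC MI against 93.1, 82.5 and 108 in saline MI. Mtfr2, a regulator of mitochondrial fission, had 96.7, 172 and 119.9 in NAC MI against 39.3, 28.2 and 48.7 in saline MI. Ckap2, a protein of spindle microtubules that was listed with the p53 targets, had 495, 567 and 579 in NAC MI against 306, 284 and 321 in saline MI. Dlgap5, which stabilizes kinetochore fibres, had 434, 448 and 401 in NAC MI against 238, 261 and 298 in saline MI. Groups were apart for all 4, and the log2 differences were 1.45, 1.71, 0.85 and 0.69 in that order. DESeq2 called the first 3 (adjusted p = 0.00320 for each).

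Promoters of these genes are known to carry a cell cycle homology region (CHR), read by the MuvB complexes that switch late cell cycle genes off and on, beside CCAAT boxes bound by NF-Y. Windows from 250 bases before to 50 bases after a gene's start were taken from RefSeq on GRCm38.p6 and matched 45 of the 53 genes with 48 windows. The letters TTTGAA, the core of the CHR, were searched on both strands, as were CCAAT and TTTCCCGC, a form of the E2F site, and matches of different motifs may share letters. TTTGAA was in 34 of the 48 windows (70.8%), against 17.9% of all 32851 promoter windows of the same length, and CCAAT was in 35 (72.9%), against 37.4%. Both were in 29 windows (60.4%), against 6.95% of all. Of the 31 windows of members with groups apart 61.3% held both, against 58.8% of the 17 windows of members whose groups overlapped. For TTTGAA these shares were 77.4% and 58.8%, and for CCAAT 71.0% and 76.5%. The list was chosen by known function, so its shares describe the list and not the difference between NAC and saline. In the 42 windows of the genes of DNA replication and S phase, TTTGAA was in 14.3%, CCAAT in 66.7% and TTTCCCGC in 16.7%, and the last was in 2.08% of the mitotic windows and 1.07% of all windows. These counts describe letters in a window, and no binding was measured. The 4 windows below belong to the member with the smallest p (Hmmr) and to the leading members for the contractile ring (Anln), the checkpoint (Bub1) and the mitotic cyclin (Ccnb1). They are written on the gene's strand from 5′ to 3′, with matches to either motif, on either strand, in capitals.
Hmmr: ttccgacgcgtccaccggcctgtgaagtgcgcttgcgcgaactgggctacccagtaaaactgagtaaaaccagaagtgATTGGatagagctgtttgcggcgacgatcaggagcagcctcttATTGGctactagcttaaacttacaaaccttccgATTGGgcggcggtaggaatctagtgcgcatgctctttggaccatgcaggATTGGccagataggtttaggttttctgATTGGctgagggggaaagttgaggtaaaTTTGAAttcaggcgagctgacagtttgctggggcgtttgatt
Anln: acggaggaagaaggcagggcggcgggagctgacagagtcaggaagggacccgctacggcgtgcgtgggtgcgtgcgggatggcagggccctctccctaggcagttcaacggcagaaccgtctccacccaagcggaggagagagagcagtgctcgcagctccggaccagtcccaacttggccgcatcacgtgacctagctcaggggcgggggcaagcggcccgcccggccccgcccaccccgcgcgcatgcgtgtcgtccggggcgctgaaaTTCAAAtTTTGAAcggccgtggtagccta
Bub1: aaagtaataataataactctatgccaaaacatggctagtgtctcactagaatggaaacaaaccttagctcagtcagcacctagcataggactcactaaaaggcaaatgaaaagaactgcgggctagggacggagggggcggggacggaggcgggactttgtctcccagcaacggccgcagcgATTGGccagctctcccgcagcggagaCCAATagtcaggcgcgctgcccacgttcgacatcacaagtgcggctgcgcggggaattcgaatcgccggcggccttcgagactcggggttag
Ccnb1: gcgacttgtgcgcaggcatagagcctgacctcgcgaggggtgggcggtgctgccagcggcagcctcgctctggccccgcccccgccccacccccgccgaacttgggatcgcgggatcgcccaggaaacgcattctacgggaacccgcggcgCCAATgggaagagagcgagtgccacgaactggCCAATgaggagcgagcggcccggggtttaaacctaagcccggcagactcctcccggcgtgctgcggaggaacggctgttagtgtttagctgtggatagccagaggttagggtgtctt
The Hmmr window lies at chr11:40733388-40733687, minus strand, and holds 1 TTTGAA and 5 CCAAT matches around the gene's start (gene at chr11:40701395-40733422). The Anln window lies at chr9:22389157-22389456, minus strand, and holds 2 TTTGAA matches and 0 CCAAT matches. Unlike those of Hmmr, Bub1 and Ccnb1, its bases just after the start were found in no GENCODE M21 transcript of the gene. The start of Anln may thus be placed elsewhere in that annotation. The Bub1 window, at chr2:127831810-127832109, and the Ccnb1 window, at chr13:100786437-100786736, both on the minus strand, each hold 2 CCAAT matches and 0 of TTTGAA in that exact form.

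Among the 6 sham libraries, NAC sham 2 and saline sham 3 stood apart from others of their group. Summed ribosomal protein genes were 254495, 229197 and 237549 in NAC sham and 264446, 271523 and 566131 in saline sham. Summed immediate early genes were 13171, 100246 and 16236 in NAC sham and 78916, 70734 and 71774 in saline sham, so that NAC sham 2 lay above all of saline sham. Summed macrophage and monocyte markers were 2068, 27155 and 1559 in NAC sham and 1273, 1549 and 1039 in saline sham. NAC sham 2 thus exceeded even the highest infarcted library, saline MI 3 at 16911. Summed interferon-stimulated genes were 4564, 14972 and 3981 in NAC sham and 5176, 7165 and 7193 in saline sham.

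In sham hearts, which share no library with the infarcted ones, the 53 genes had a median log2 difference of 0.04 between NAC and saline, with 30 higher and 1 of them at an unadjusted p under 0.05 in limma (3.53% of all genes were higher at that level). Without NAC sham 2 the sham median was -0.0058 with 26 of 53 higher, without saline sham 3 it was -0.08 with 19 higher, and without both it was -0.15 with 9 higher. Their sums were 40102, 48383 and 40969 in NAC sham and 42198, 46063 and 32003 in saline sham. All 3 saline MI sums lay below all 9 others. Anln, for example, averaged 1410.1 ± 55.4 in NAC MI, 735 ± 58.8 in saline MI, 1497 ± 119 in NAC sham and 1222 ± 322 in saline sham (SD, n = 3 each). Ccnb1 averaged 993 ± 109 in NAC MI, 568 ± 46.8 in saline MI, 840.5 ± 184 in NAC sham and 916 ± 251 in saline sham (SD, n = 3 each). The test of the difference itself, the interaction of NAC with surgery, called 0 of 14996 genes in limma (305 at an unadjusted p under 0.05, 2.03%), 0 in edgeR and 1 in DESeq2. That 1 gene was Gm21188, a predicted gene named here for its call alone, which among the 6 sham libraries had reads in NAC sham 2 only. All 53 mitotic genes had an interaction above 0 (median log2 0.47), and 12 of them had an unadjusted p under 0.05. Among the genes named for the interaction, Mtfr2 had 1.74 ± 0.47 (log2, SE) and Pex3, which brings membrane proteins to peroxisomes, had 0.90 ± 0.30, both at an adjusted p of 1.0 in limma. Surgery and title prefix are confounded, since no prefix holds both infarcted and sham libraries. Treatment and prefix were also largely confounded within sham. The titles of NAC sham 1 and 3 have no prefix, those of NAC sham 2 and saline sham 1 and 2 begin with R207, and that of saline sham 3 with R219.

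**Figure D3:**
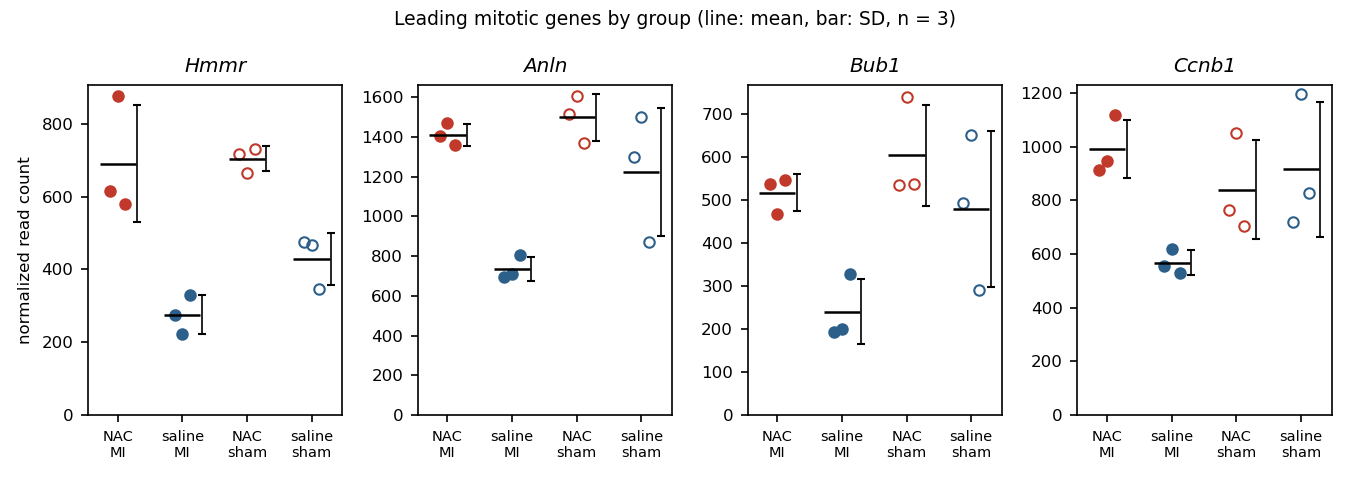
Normalized read counts (linear axis from 0) of 4 mitotic genes in NAC MI, saline MI, NAC sham and saline sham, with points for libraries, a line for the mean and a bar for the SD (n = 3 per group). Saline MI is the lowest group in all 4 panels, with means from 240.3 for Bub1 to 735 for Anln, and the NAC MI points lie above all of its points.

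Genes of DNA replication and S phase had a smaller median difference than those of mitosis. Of 44 tested, 31 were higher and 13 lower, with 4 and 1 at an unadjusted p under 0.05, 10 and 1 with groups apart, and a median log2 of 0.14. Over all genes 3.86% were higher and 5.35% lower at that p, and 8.84% were higher and 11.5% lower with groups apart. Licensing factors had a median of 0.18 (10 of 12 higher) and fork components 0.03 (11 of 18 higher). Prim1, the small primase subunit, had 399, 390.3 and 611 in NAC MI against 303, 315 and 316 in saline MI, and NAC MI 3 was the highest library. Orc1, the largest subunit of the origin recognition complex, had 63.8, 59.4 and 59.9 in NAC MI against 29.2, 40.1 and 39.0 in saline MI, with groups apart. Of 15 genes for CDK inhibitors, pocket proteins and G1 cyclins, 6 were higher and 9 lower (median log2 -0.07, and -0.01 after adjustment for GC content and transcript length). Ccnd3, the G1 cyclin D3, had 2354, 2111 and 1767 in NAC MI against 2897, 2969.8 and 2549 in saline MI, lower in every NAC MI library. Cdk6, a partner of D-type cyclins, had 849, 826 and 932 in NAC MI against 689, 579 and 779.6 in saline MI, higher in every NAC MI library. Cdkn1a, the CDK inhibitor p21, had 1018, 748 and 905 in NAC MI against 1189, 1235 and 801 in saline MI, and the groups overlapped.

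**Figure D4:**
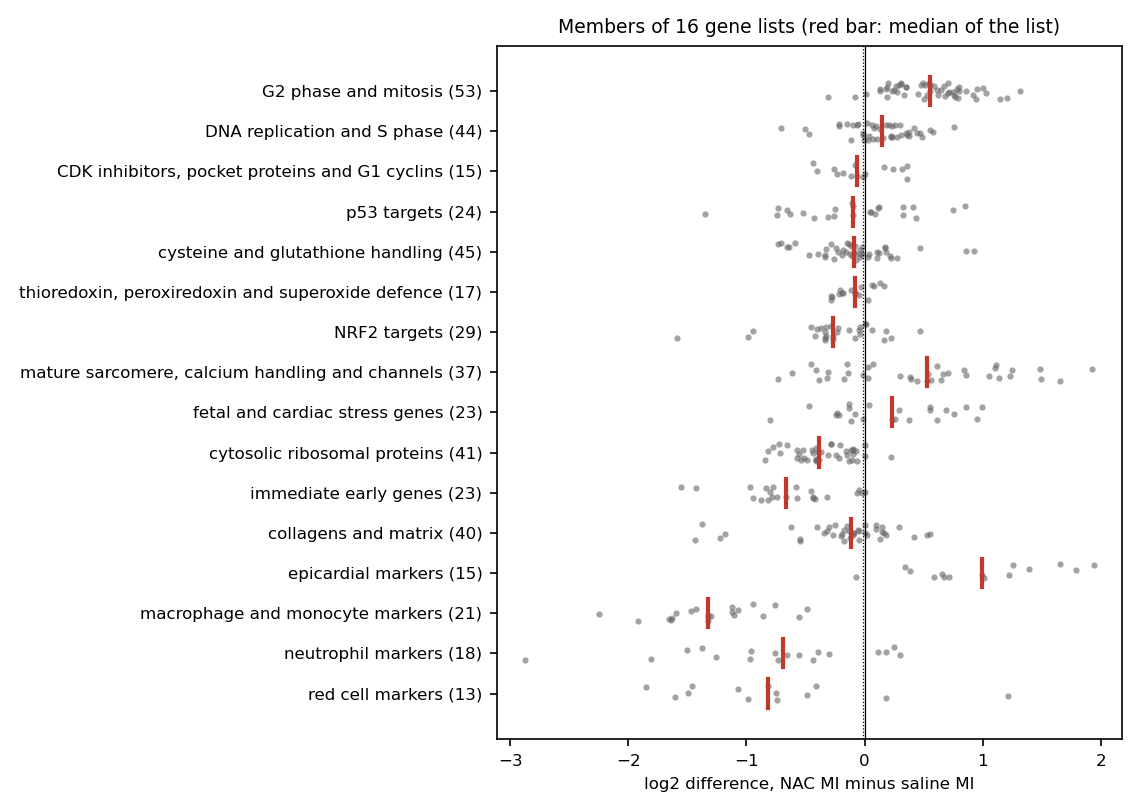
Each grey point is the log2 difference, NAC MI minus saline MI, of 1 tested member of the list named at the left (number tested in brackets), the red bar is the list's median, and the dotted line is the median of all genes. The median of G2 phase and mitosis is 0.55 with 51 of 53 points right of 0, and that of macrophage and monocyte markers is -1.32 with all 21 points left of 0, a list in which NAC MI 2 stood apart.

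Genes that take up cysteine and make or use glutathione, the pathway that NAC feeds, had small differences that were more often below 0 before adjustment for base composition than after it. Of 45 tested, 14 were higher and 31 lower, with 1 and 3 at an unadjusted p under 0.05 (background 3.86% higher and 5.35% lower), and the median log2 was -0.09. Adjusted for GC content and transcript length, 21 of the 45 were higher and the median was -0.0069. Slc7a11, the cystine carrier of system xc-, had 78.8, 18.9 and 48.6 in NAC MI against 37.0, 55.7 and 39.0 in saline MI, with the highest and the lowest value both in NAC MI. Gclc, the catalytic subunit of the rate-limiting enzyme of glutathione synthesis, had 469, 279 and 598 in NAC MI against 371, 388 and 375 in saline MI, with a narrow saline MI range inside a wide NAC MI range. Glrx5, a mitochondrial glutaredoxin for iron-sulfur clusters, had 1239, 1254 and 1375 in NAC MI against 2155, 2049 and 1659.6 in saline MI. Mpst, which makes hydrogen sulfide from cysteine-derived mercaptopyruvate, had 332, 193 and 248 in NAC MI against 369, 416 and 397 in saline MI. Both were lower in all 3 NAC MI libraries, with log2 differences of -0.59 ± 0.24 and -0.64 ± 0.27 (adjusted p = 0.529 in limma). Adjusted for GC content and transcript length, Mpst stood at -0.25.

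Thioredoxins, peroxiredoxins and superoxide dismutases gave 5 of 17 genes higher (median log2 -0.08, range -0.28 to 0.17). In limma 0 of the 17 had an unadjusted p under 0.05, against 9.22% of all genes. Groups were apart for 0, against 8.84% of all genes higher and 11.5% lower. Txnrd1, the cytosolic thioredoxin reductase, had 1596, 1440.0 and 1653 in NAC MI against 1650.0, 1445 and 1389 in saline MI. Sod2, the mitochondrial superoxide dismutase, had 4108, 3964 and 4873 in NAC MI against 4939.9, 5932 and 3959 in saline MI. Both overlapped, and the 95% interval of the log2 difference was -0.34 to 0.47 for Txnrd1 and -0.74 to 0.38 for Sod2. Targets of NRF2, the transcription factor of the response to oxidants and electrophiles, were higher in 7 of 29 (median log2 -0.27, -0.15 with 10 of 29 higher without NAC MI 2, and -0.15 after adjustment for GC content and transcript length), and 9 were lower with groups apart (against 11.5% of all genes). Blvrb, a biliverdin reductase abundant in red cells, had 444, 432 and 504 in NAC MI against 812, 774 and 1107 in saline MI, beside globin reads that were also lower in NAC MI. Osgin1, a growth inhibitor induced by oxidants, had 50.7, 10.1 and 61.1 in NAC MI against 105, 95.8 and 93.6 in saline MI, and NAC MI 2 was the lowest. Nqo1, a quinone reductase, had 138, 152 and 189 in NAC MI against 192, 269 and 134 in saline MI, and Hmox1, the inducible heme oxygenase, had 1175, 209.7 and 806 in NAC MI against 1187, 983 and 1338 in saline MI. Both overlapped, and Hmox1 was lowest in NAC MI 2, the library low in macrophage markers. The part of red cells and macrophages in these differences was not tested.

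Of 7 tested genes for metallothioneins, zinc transport and their transcription factor, 2 were higher at an unadjusted p under 0.05 in limma (against 3.86% of all genes), both of them zinc importers. Slc39a8, the zinc and manganese importer ZIP8, had 299, 1571 and 294 in NAC MI against 196, 143 and 179 in saline MI, with groups apart and NAC MI 2 far above the rest. Its log2 difference was 1.59 and was 0.79 without NAC MI 2. Slc39a14, the related importer ZIP14, had 785, 925 and 548 in NAC MI against 488, 474 and 489 in saline MI, higher in every NAC MI library.

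Calcium handling genes of the heart muscle cell were higher in 10 of 11 (6 at an unadjusted p under 0.05 and 4 with groups apart, against 3.86% and 8.84% of all genes, median log2 1.06). In sham hearts their median with NAC was 1.27. Their sums there were 134374, 41398 and 124986 in NAC sham against 39342, 41230 and 37348 in saline sham. NAC sham 2, the NAC sham library that shares a title prefix with saline sham libraries, thus lay just above the saline sham sums. Slc8a1, the sodium-calcium exchanger, had 7739, 15260.3 and 5181 in NAC MI against 2693, 2476 and 4098 in saline MI. Ryr2, the calcium release channel of the sarcoplasmic reticulum, had 7818, 11568 and 5038 in NAC MI against 2789.6, 3217 and 3768 in saline MI. NAC MI 2 was the highest library for both, and without it the calcium handling median was 0.66. The median was 0.42 within prefix R230 and 1.0 within R235. Atrial markers were higher beside them in 7 of 8 (0 with groups apart, median log2 0.98, 0.09 within R230, 1.46 within R235 and 0.63 without NAC MI 2), and the part of atrial cells in the calcium handling difference was not tested. Of 10 ion channel and junction genes 9 were higher (median log2 0.61, 0.09 within R230). Among 16 sarcomere genes 7 were higher (median -0.08, and -0.21 to 0.05 with 1 library left out), with Ttn, the giant spring protein titin, as the member furthest up at 17313, 40856 and 17389 in NAC MI against 4850.2, 5453 and 8435 in saline MI. Erbb4, the neuregulin receptor of cardiomyocytes, had 204, 296 and 116 in NAC MI against 41.5, 50.5 and 109 in saline MI, with the lowest NAC MI library just above the highest saline MI library.

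The list of fetal genes and of genes induced by cardiac stress had 23 tested members, 13 of them higher and 10 lower. Of the 23, 0 had an unadjusted p under 0.05 in limma, against 9.22% of all genes. The median log2 difference of the list was 0.23, with -0.03 without NAC MI 2 and -0.02 without saline MI 3. Groups did not overlap for 1 of the 23, Rcan1, an inhibitor of calcineurin, which was lower (log2 difference -0.24), against 11.5% of all genes. Nppa, the atrial natriuretic peptide, had 806, 1789.9 and 332 in NAC MI against 537, 391 and 287 in saline MI. Nppb, the B-type peptide, had 3362, 7871 and 2172 in NAC MI against 4020.1, 1428 and 2779 in saline MI. Myh7, the fetal myosin isoform, had 10002, 16977 and 8986 in NAC MI against 9386, 8444 and 8820.5 in saline MI. Groups overlapped for the first 2 genes and for Myh7, where NAC MI 3 lay within the saline MI range, and NAC MI 2 was highest for all 3.

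In lipid and fuel metabolism, single genes stood out from lists with medians near 0. Lpl, the lipase that frees fatty acids from lipoproteins, had 10475, 16155 and 7752 in NAC MI against 4928, 4530.4 and 6673 in saline MI. Nceh1, a hydrolase of cholesterol esters and ether lipids, had 912, 1276 and 679.6 in NAC MI against 462, 342 and 558 in saline MI. Slc16a1, the lactate and pyruvate carrier MCT1, had 1847, 4148 and 1438 in NAC MI against 1088, 929 and 1114 in saline MI. Groups were apart for these 3, with NAC MI 2 highest and NAC MI 3 lowest among the NAC libraries, and the differences between NAC sham and saline sham ran the same way (log2 0.83, 1.63 and 1.27). The lists around them stood at medians of 0.08 for fatty acid oxidation and PPAR targets (17 of 30 higher), -0.15 for lipid hydrolases (4 of 11) and -0.01 for glycolysis (11 of 23). None of these 3 medians kept its sign with every single library left out, with ranges of -0.10 to 0.19 for fatty acid oxidation, -0.20 to 0.11 for lipid hydrolases and -0.14 to 0.07 for glycolysis. Without NAC MI 2 lipid hydrolases stood at 0.11 (6 of 11 higher) and glycolysis at -0.07 (5 of 23 higher). Without saline MI 3 fatty acid oxidation stood at -0.10. Glycolysis stood at 0.04 without NAC MI 3 and 0.07 without saline MI 2. Adjusted for GC content and transcript length, lipid hydrolases stood at 0.0094 and glycolysis at 0.08 (18 of 23 higher). Cholesterol synthesis had 15 of 20 genes higher (4 at an unadjusted p under 0.05, against 3.86% of all genes, median log2 0.28). Cyp51, the lanosterol demethylase, was higher in every NAC MI library at 414, 584 and 477 against 311, 219.1 and 353 in saline MI, and Mvd, mevalonate diphosphate decarboxylase, was lower at 120.1, 55.6 and 126 in NAC MI against 256, 173 and 173 in saline MI. Hif1a, the oxygen-regulated transcription factor, had 2787, 3140.2 and 2624 in NAC MI against 1723, 1657 and 2049 in saline MI, while 11 of 24 hypoxia genes were higher (median -0.03, and -0.04 to 0.06 with 1 library left out).

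The other genes named for the smallest p values with groups apart had varied functions. Slc16a12, a carrier of creatine, had 159, 229.9 and 132 in NAC MI against 41.5, 32.7 and 86.7 in saline MI. Fstl4, a follistatin-like protein, had 129, 259 and 80.3 in NAC MI against 24.7, 33.4 and 46.8 in saline MI. Tmem161b, a membrane protein, had 191, 253 and 227 in NAC MI against 107, 81.0 and 142 in saline MI. For these 3 the log2 differences were 1.76, 2.01 and 1.05, and in sham hearts 1.08, 1.89 and 0.80. Col26a1, a collagen, had 352, 254 and 224 in NAC MI against 608, 520.0 and 558 in saline MI. Fam214b had 560.2, 452 and 410.5 in NAC MI against 815, 827 and 841 in saline MI. Islr, a secreted leucine-rich repeat protein of stromal cells, had 436, 287 and 315 in NAC MI against 771, 553 and 750.4 in saline MI. Each of them was lower in all 3 NAC MI libraries, with log2 differences of -1.04, -0.81 and -1.0. Map3k11, the kinase MLK3 upstream of JNK, had 1045, 623 and 949 in NAC MI against 1577, 1479.7 and 1461 in saline MI. Znrf1, a ubiquitin ligase, had 903, 628 and 753 in NAC MI against 1334, 1368 and 1167 in saline MI. Cactin, a splicing factor, had 459.8, 400.4 and 363 in NAC MI against 786, 699.7 and 641 in saline MI. These were lower in all NAC MI libraries as well, and adjustment for GC content and transcript length gave -0.45, -0.65 and -0.38 in place of -0.82, -0.77 and -0.80. Ache, acetylcholinesterase, had 28.2, 7.58 and 1.13 in NAC MI against 47.1, 58.7 and 71.1 in saline MI, a low count with a wide spread.

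Regulators of cell death of the BCL2 family were lower in 13 of 14 tested (2 at an unadjusted p under 0.05 and 4 with groups apart, against 5.35% and 11.5% of all genes, median log2 -0.41). In sham hearts 12 of the 14 were lower too (median -0.32), and the median interaction was -0.10. Bbc3, which encodes the killer protein PUMA and is a p53 target, had 145, 66.9 and 55.4 in NAC MI against 254, 183 and 197 in saline MI. All NAC MI values were below all saline MI values, with a log2 difference of -1.35 ± 0.32 (adjusted p = 0.529 in limma) and of -0.65 after adjustment for GC content and transcript length. Bcl2l1, which encodes the survival protein BCL-xL, was lower too, at 949, 719 and 673 in NAC MI against 973, 1145 and 1311 in saline MI. Members with opposite roles thus had the same sign, and the median was -0.25 after that adjustment. The 24 p53 targets had a median of -0.10, with 11 higher. That median was 0.02 without NAC MI 2, with 12 higher, and -0.04 without saline MI 1 and -0.03 without saline MI 3. It was 0.13 within prefix R230 and -0.11 within R235.

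Ribosomal protein genes and immediate early genes were mostly below 0, in infarcted and in sham hearts. Of 41 cytosolic ribosomal protein genes 38 were lower (6 at an unadjusted p under 0.05, against 5.35% of all genes, and 15 with groups apart, against 11.5%, with a median log2 of -0.39, in sham -0.50). Without saline sham 3 the sham median was -0.12, with 34 of 41 lower. Rplp2, a stalk protein of the large subunit, had 5169.9, 4801 and 5022 in NAC MI against 10372, 7985 and 7525 in saline MI. Rps15, of the small subunit, had 6909, 5751 and 4570.4 in NAC MI against 12065, 10016 and 8677 in saline MI. Of 23 immediate early genes 22 were lower (3 at an unadjusted p under 0.05, median -0.67, in sham -0.97, and -1.74 there without NAC sham 2). Klf2, a factor induced by flow in endothelium, had 1372, 945 and 1730.0 in NAC MI against 3063, 2928 and 1796 in saline MI. Jund, a subunit of AP-1, had 652, 643 and 396 in NAC MI against 1320.2, 1191 and 542 in saline MI, and saline MI 3 lay within the NAC MI range. Without NAC MI 2 the medians were -0.25 for ribosomal proteins and -0.26 for immediate early genes. Within prefix R230 they were -0.26 and -0.33 in that order, and within R235 -0.17 and -0.22. Adjusted for GC content and transcript length, the immediate early median was -0.40.

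Differences between the groups were related to base composition. Across the 14980 genes with a known GC content, the log2 difference had a Spearman rho of -0.46 with GC content of transcripts and 0.22 with mean transcript length, as a description over genes that share their libraries. With genes ranked by GC content and cut into 5 equal bins, the lowest bin had a median log2 difference of 0.27 and the highest bin -0.32. Within prefix R230 these medians were 0.44 and -0.54, and within R235 0.02 and -0.12. The 53 mitotic genes had a median GC content of 47.1%, against 50.03% over all genes. With values adjusted for GC content and length in each library, an alternative added after the data were seen, their median log2 difference was 0.45, with 51 of 53 higher and 27 at an unadjusted p under 0.05 (3.06% of all genes higher). The ribosomal protein median became -0.22 and that of calcium handling 0.97. What set the trend with GC content was not tested.

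**Figure D5:**
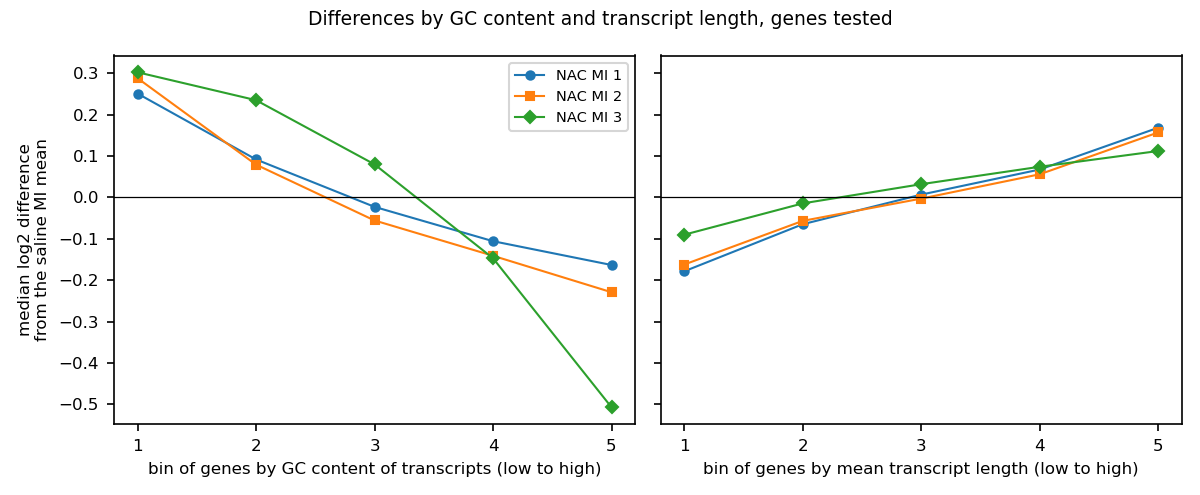
Median over genes of the log2 difference between each NAC MI library and the saline MI mean (vertical axis), in 5 equal bins of genes ranked by GC content (left) and by mean transcript length (right), low to high. All 3 libraries decline with GC content, NAC MI 3 furthest, at -0.51 in the highest bin.

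Markers of blood and of non-muscle cells also differed between the libraries. Globin transcripts took 2.23%, 1.42% and 2.78% of reads in NAC MI against 4.24%, 4.69% and 7.05% in saline MI (exact permutation test, two-sided, p = 0.1, the smallest that 3 against 3 can give). Hbb-bt, an adult beta globin, had 18249.8, 10393 and 12102 in NAC MI against 42145, 42756 and 60014 in saline MI, and Hbq1a, a theta globin, had 13.1, 16.4 and 10.2 in NAC MI against 84.1, 68.3 and 69.2 in saline MI. Groups were apart for both, 11 of 13 red cell markers were lower (median log2 -0.82, in sham -0.93), and reads of near-identical globin copies may have been split between them. Tfrc, the transferrin receptor, was the exception named among red cell markers, at 1709, 3565 and 983 in NAC MI against 715, 554 and 1207 in saline MI. Mitochondrial transcripts took 25.7 ± 3.48% of reads in NAC MI and 27.2 ± 2.82% in saline MI (SD, n = 3 each, exact permutation p = 0.7).

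All 21 macrophage and monocyte markers were lower in NAC MI (median log2 -1.32), and the median was -0.26 without NAC MI 2, with 8 of 21 then higher. Tyrobp, an adaptor of myeloid receptors, had 476, 18.9 and 299.6 in NAC MI against 846, 512 and 699.7 in saline MI. Neutrophil markers had a median of -0.69, and of 0.07 without NAC MI 2. Csf3r, the neutrophil growth factor receptor, had 562, 56.8 and 484 in NAC MI against 841, 767 and 1046 in saline MI. Spp1, the macrophage product osteopontin, had 5773, 229.9 and 4723 in NAC MI against 4811, 2618 and 5823 in saline MI. NAC MI 2 was far below every other infarcted library for these 3 genes, and chemokines had a median of -1.17, or -0.30 without it. Epicardial markers were higher in 14 of 15 (median 1.0, and 0.32 without NAC MI 2). Upk1b, a uroplakin of mesothelium, had 369, 2176 and 525 in NAC MI against 319.7, 197 and 214 in saline MI, and Bnc1, a transcription factor of the same layer, had 126, 500.2 and 78.0 in NAC MI against 42.6, 54.2 and 49.7 in saline MI. The part of these cells in the differences of other genes was not tested.

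Among 40 genes of collagens and matrix, 14 were higher and 26 lower (median log2 -0.11). Of 13 collagens 11 were lower, 5 with groups apart (against 11.5% of all genes) and 1 at an unadjusted p under 0.05 (against 5.35%), with a median log2 of -0.20. Without NAC MI 3 the collagen median was -0.10 with 6 of 13 higher, and without saline MI 3 it was -0.10 with 5 higher. Of 17 matricellular and provisional matrix genes 9 were higher and 8 lower, 0 with groups apart in either direction (median log2 0.0054), and of 10 metalloproteinases and inhibitors 3 were higher (median -0.28). Col15a1, a basement membrane collagen, had 7932, 4353 and 6181 in NAC MI against 8775, 8789 and 10115 in saline MI. Tgfb1, the growth factor that drives matrix production, had 1090.5, 589 and 1079 in NAC MI against 1716, 1431 and 1395 in saline MI. Nos3, the endothelial nitric oxide synthase, had 647, 448 and 640.0 in NAC MI against 894, 893 and 725 in saline MI. Cxcl12, a chemokine of stromal and endothelial cells, had 3224, 1712 and 3694 in NAC MI against 3835, 4548 and 3960.5 in saline MI. NAC MI 2 was the lowest library for all 4, and each of them was also below the saline MI range in NAC MI 1 and 3. Fibroblast markers had a median of -0.18 (5 of 15 higher, and -0.02 without saline MI 3) and endothelial markers -0.26 (4 of 17 higher, and 11 of 17 without NAC MI 2).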

How the data were processed

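Poly-A-selected RNA of isolated neonatal mouse cardiomyocytes was sequenced in 12 libraries, and the build mm10, STAR 2.7.10a and DESeq2 1.44.0 stand in the submitters' processing notes. The gene counter, its strand setting and the annotation release are not given in the sources used here, so reads of overlapping genes on opposite strands cannot be told apart. The deposited table holds a signal per gene, the read counts that the authors divided by a size factor of each library. Multiplied back by that factor, 100% of the values were whole within 0.01, which recovers the reads. The table held 0 columns of other samples. Of 52336 gene identifiers, 52079 were named from GENCODE M21 (GRCm38), and 21590 had 0 reads in all libraries. Replicates of a group differed by more than sampling noise, and none was counted as a repeat of another.

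Values were tested as log2(value + 1), a scale that understates the change of low genes, with limma 3.58.1 in R 4.3.3, a trended prior variance and 1 model of 4 group means over the 12 libraries. Tests were two-sided, with Benjamini-Hochberg adjustment over 14996 genes and a threshold of 0.05. The test was checked on simulated data that held no deviating libraries, so the check does not show its power at the spread of these libraries. Alternatives were edgeR 4.0.16 and DESeq2 1.42.0 on the recovered reads, other pseudocounts, filters and scalings, library quality weights, the title prefix as a block, and leaving out each library. Other alternatives were added after the data were seen: adjustment for GC content and transcript length, and leaving out the libraries with the lowest weights.

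Genes were grouped in 46 lists of 979 symbols, of which 976 were matched and 903 tested, and 66 symbols are in more than 1 list. The libraries compared, the lists and the tests were chosen with earlier results of these data known, so lists are described by counts and medians without a test. Genes named are, in each direction, the 10 with the smallest p among those with groups apart, a higher group averaging 50 or more and a symbol that is not a predicted or clone name, the 2 smallest p in each list, fixed cardiac, redox and cell cycle genes, and 5 each way for the interaction. Values are given for some of these. Mitotic genes other than Hmmr, Bub1, Anln, Ccnb1, Cdk1, Mki67, Ckap2, Dlgap5, Depdc1a and Mtfr2 were named for their roles, after their values were seen, as were Gm21188 and Rcan1.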

Additional observations from a re-analysis of the deposited data

How the results depend on the processing

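With 0 genes called in the comparison of NAC MI with saline MI, DESeq2 called 10, library quality weights gave 685, and leaving out 1 library at a time gave 0 to 4, the 4 being Ddx3y, Eif2s3y, Kdm5d and Uty without NAC MI 3. For the interaction DESeq2 called 1 gene, leaving out 1 library gave 0 to 4, the same 4 Y-linked genes without NAC MI 3, and leaving out the 3 libraries with the lowest quality weights (NAC MI 2, NAC sham 2 and saline sham 3), an alternative added after the data were seen, gave 6. All other alternatives run gave 0 calls in both. The median of the genes of G2 phase and mitosis ran from 0.47 to 0.63 when 1 library was left out, and was 0.45 when adjusted for GC content and transcript length, both with all libraries and with the infarcted ones only. The number of them higher at an unadjusted p under 0.05 ran from 16 to 33 over the left-out libraries, with 16 and 20 without saline MI 1 and 2. The number higher stayed at 49 to 52 of 53 under every alternative run. Among named genes, the log2 difference took the other sign for Slc7a11 in edgeR (0.18, and 0.17 with the infarcted libraries only), DESeq2 (0.16), quality weights (0.57), the prefix block (0.047), leaving out 1 library (-0.49 to 0.51), without the 3 lowest-weight libraries (0.51) and with the infarcted libraries without NAC MI 2 (0.51). Pttg1 was 0.054 with quality weights and -0.18 to 0.066 with 1 library left out. Cdc25b ran from -0.19 to 0.12 and Gclc from -0.062 to 0.49 with 1 library left out, and Spp1 from -2.0 to 0.32, with 0.32 also without the 3 lowest-weight libraries and with the infarcted libraries without NAC MI 2. The cause of these reversals was not tested. No paired analysis was possible because the labels give no replicate numbers that the groups share; with the title prefix as a block in its place, 0 genes were called and the mitotic median was 0.55. An exact test of 3 libraries against 3 cannot go below p = 0.1. At 14353842 to 25118341 reads per infarcted library, low genes such as Ache and Slc7a11 rest on few reads, and counting error covers only part of their spread.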
